A study of Mus musculus with 12 samples.

Results

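The respiratory chain of mitochondria is built from 5 protein complexes, and the genes described here are the ones in the nucleus that encode its subunits and part of its assembly factors. They were taken by symbol from a table of gene expression in mouse cerebellum: every gene whose name starts with Nduf, Uqcr or Atp5, or with Cox and a digit, plus Sdha, Sdhb, Sdhc, Sdhd, Cyc1 and Cycs. The rule found 85 genes among the 7667 named genes of the table. Of these, 40 belonged by symbol to complex I, 4 to complex II, 8 to complex III, 19 to complex IV and 14 to complex V, while Cycs (cytochrome c) had no row. By role, 18 were core subunits, 52 accessory subunits and 13 assembly factors. The other 2, Atp5s and Atp5sl, carry an ATP synthase symbol without being counted here as subunits.

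The tissue was total cerebellum of fxSCA7 92Q mice, which carry an Atxn7 repeat of 92 CAG units, and of their wild-type littermates, whose repeat has the normal length. Spinocerebellar ataxia type 7 is a neurodegenerative disease caused by such an expansion. There were 4 conditions: 92Q at 12 weeks, wild type at 12 weeks, 92Q at 29 weeks and wild type at 29 weeks, each with 3 libraries of 3 pooled mice. The sources used here do not state the promoter behind the expanded allele, the sex of the mice or the number of founder lines. The authors deposited 1 whole-number score per gene and condition, a normalized expression value with no stated unit, in which the 3 libraries were already combined. No spread between replicates could therefore be computed, no test was made, and every comparison below is between single values with no replicate check. A log2 ratio is log2 of the score + 1 in one condition over the score + 1 in another.

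The column median was 22 in each of the 4 conditions and column sums lay between 322446 and 333581. Since scores are whole numbers, each log2 ratio of the 85 genes is known only to within a margin of 0.0022 to 0.14, with a median margin of 0.018. The make-up of the tissue samples differed between conditions in ways that touch every result below. The defining markers of cerebellar neurons were present, with rows for 10 of 12 Purkinje cell markers and all 10 granule neuron markers. Purkinje markers were all lower in 92Q at either age, their log2 ratios having medians of -0.27 at 12 weeks and -0.64 at 29 weeks. For granule neuron markers the medians were 0.075 at 12 weeks and -0.15 at 29 weeks. At 29 weeks all 7 microglial markers were higher in 92Q, by a median log2 ratio of 1.1. Oligodendrocyte markers had the directions of the respiratory chain genes, with 5 of 7 lower at 12 weeks, by a median of -0.069 over the 7, and 6 of 7 higher at 29 weeks, by a median of 0.29. The 7 astrocyte and Bergmann glia markers had medians of -0.054 at 12 weeks and -0.057 at 29 weeks, while Gfap, one of them, scored 235 in 92Q and 95 in wild type at 29 weeks. Genes of the choroid plexus, a tissue next to the cerebellum, and sex-linked genes also differed. Ttr, a choroid plexus gene, scored 6 in 92Q and 336 in wild type at 12 weeks, and 1403 in 92Q and 445 in wild type at 29 weeks. Xist scored 30 in 92Q and 66 in wild type at 12 weeks, against 25 in 92Q and 63 in wild type at 29 weeks, so it was lower in 92Q at both ages. The Y-linked Eif2s3y scored 12 in 92Q and 0 in wild type at 12 weeks, and 15 in 92Q and 6 in wild type at 29 weeks, which was higher in 92Q at both ages. The part of cell makeup, choroid plexus tissue and sex in the results below was not tested. In bulk tissue, fewer cells of a type and less RNA per cell cannot be told apart. Library numbers in the titles do not overlap between ages, as all those at 12 weeks are higher than all those at 29 weeks. Age and library number therefore cannot be told apart. Among the 3 libraries of 92Q at 29 weeks, 1 is numbered far from the rest of that age in its title, and its values cannot be separated from the condition's score.

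Complex I takes electrons from NADH and complex II takes them from succinate, a step it shares with the citric acid cycle. Complex III passes them to cytochrome c and complex IV passes them on to oxygen. Complexes I, III and IV pump protons across the inner membrane, and complex V, the ATP synthase, uses the returning protons to make ATP. All complexes except II also hold subunits made from mitochondrial DNA, which are not among these genes. Neurons, Purkinje cells among them, depend strongly on this pathway for ATP.

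At 12 weeks nearly all of these genes scored slightly lower in 92Q than in wild type. Of the 85, 73 were lower, 3 were higher and 9 had equal scores. Over all genes of the table, 36.7% were lower and 32.1% were higher. The mean score had a median of 76.25 over the 85 genes and 22.25 over all genes. Low scores are more often equal, so shares over all genes, here and below, hold more ties. At 12 weeks scores were equal in 2386 of 7660 genes. Among genes with a mean score of 50 or more, 52 of 56 respiratory chain genes were lower and 2 higher. Of 1446 other genes with such scores, 767 were lower, 547 higher and 132 equal. Since equal whole numbers part when a column is rescaled, 69 of the 85 genes were lower and 16 higher with upper quartile scaling. With median-ratio scaling 73 were lower and 12 higher. Shares over all genes were not counted under either scaling. The median log2 ratio of the 85 genes was -0.11, or -7.09% in score + 1, against a median of 0 over all genes. By at least 1.1-fold, 30 were lower, where the background was 8.02%, and 1 was higher, where the background was 4.5%. With upper quartile scaling, which moved the median of all genes to 0.032, 17 were lower by that much. The 1 that was higher was Cox18, which inserts a mitochondrially encoded subunit of cytochrome c oxidase into the inner membrane, at 10 in 92Q against 9 in wild type.

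At 29 weeks the direction was the opposite. In 92Q, 67 of the 85 genes were higher than in wild type, 9 were lower and 9 were equal, against backgrounds of 49.5% higher and 26.1% lower. Among genes with a mean score of 50 or more, 51 of 56 respiratory chain genes were higher and 5 lower. Of 1446 other genes with such scores, 767 were higher and 573 lower. With median-ratio scaling 64 of the 85 genes were higher and 21 lower. That scaling moved the median of all genes to -0.025, and shares over all genes were not counted under it. Without rescaling, the median log2 ratio of the 85 genes was 0.090, or 6.41% in score + 1, while the median of all genes was again 0. By at least 1.1-fold, 20 were higher, beside a background of 15.0%, and 2 were lower, beside a background of 8.47%. With median-ratio scaling 12 were higher by that much. The 2 that were lower were Cox6b2 and Cox5b, both of complex IV. For 78 of 85 genes the log2 ratio was higher at 29 than at 12 weeks, for 2 it was lower and for 5 it was the same, and 50.8% of all genes had a higher ratio at 29 weeks. The difference of the ratios had a median of 0.18, against 0.0038 over all genes. It reached 1.1-fold in 58 of the 85 genes, with a background of 20.4%.

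**Figure D1:**
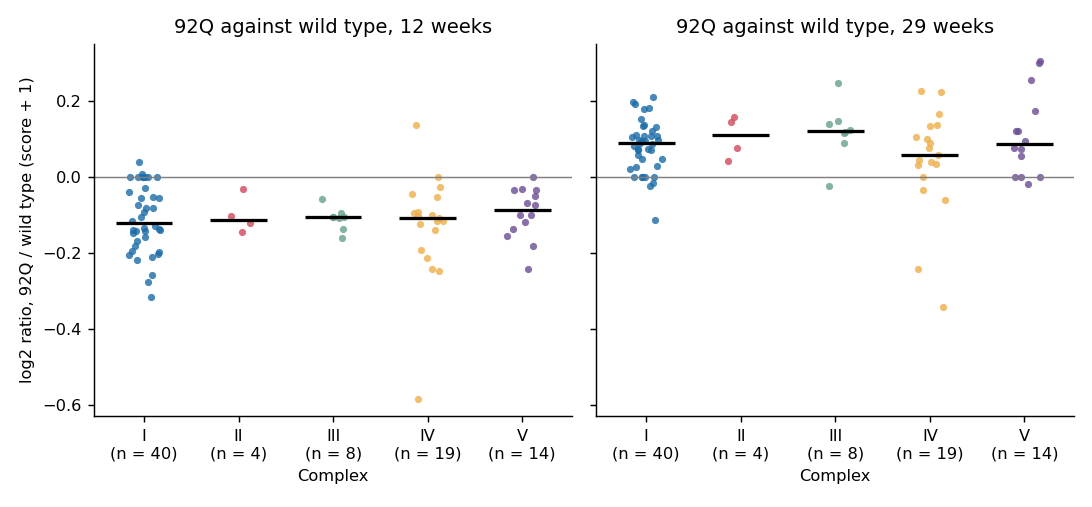
Each point is 1 gene and shows the log2 ratio of its score + 1 in 92Q over wild type, at 12 weeks on the left and at 29 weeks on the right. Genes are grouped by complex and the black bars mark the medians. All 5 medians lie below 0 at 12 weeks and above 0 at 29 weeks, and the lowest point in both panels is Cox6b2.

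Read along age, the scores differed mainly in wild type. In wild-type cerebellum 77 of the 85 genes were lower at 29 than at 12 weeks, 1 was higher and 7 were equal, with 45.9% of all genes lower and 32.5% higher. Among genes with a mean score of 50 or more, all 56 respiratory chain genes were lower. Of 1446 other genes with such scores, 940 were lower and 426 higher. The median log2 ratio of the 85 genes was -0.20, or -12.7% in score + 1 at 29 against 12 weeks. By at least 1.1-fold, 60 genes were lower and 0 were higher, beside backgrounds of 17.1% and 10.6%. In 92Q cerebellum 35 genes were higher at 29 weeks, 38 were lower and 12 were equal, where 42.4% of all genes were higher and 35.4% were lower. The median was 0.00, and it was -0.011 with median-ratio scaling and 0.019 with quantile normalization of the columns, so it had no fixed sign. There were 6 genes higher by at least 1.1-fold beside a background of 15.2%, and 3 lower beside a background of 11.9%. These age comparisons use the same 4 columns as the genotype comparisons, so they are another view of the same values. In them, age cannot be told apart from the library numbers, which also differ between ages.

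Set against each gene's own mean over the 4 conditions, the median gene stood at 100% in 92Q at 12 weeks, 107% in wild type at 12 weeks, 100% in 92Q at 29 weeks and 93.6% in wild type at 29 weeks. Wild type at 12 weeks held the highest score in 63 of 85 genes, or 74.1%, against 21.7% of all genes. Wild type at 29 weeks held the lowest in 58, or 68.2%, against 21.2% of all genes. Both held together in 49 genes, or 57.6%, against 7.53% of all genes. A score lower in 92Q at 12 weeks and higher in 92Q at 29 weeks was found for 60 genes, or 70.6%, against 17.5% of all genes. With at least 1.1-fold in each direction, 10 genes did so, or 11.8%, against 1.9% of all genes. Genes with short transcripts, taken up below, had larger shares. With a longest coding transcript under 1200 bases, these 2 directions were found in 75.5% of 49 respiratory chain genes and 47.3% of 507 others. By at least 1.1-fold in each, the shares were 18.4% and 9.67%. Of the 507 others, wild type at 12 weeks was highest in 49.5% and wild type at 29 weeks lowest in 45.6%. In the 49 respiratory chain genes these shares were 75.5% and 71.4%.

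**Figure D2:**
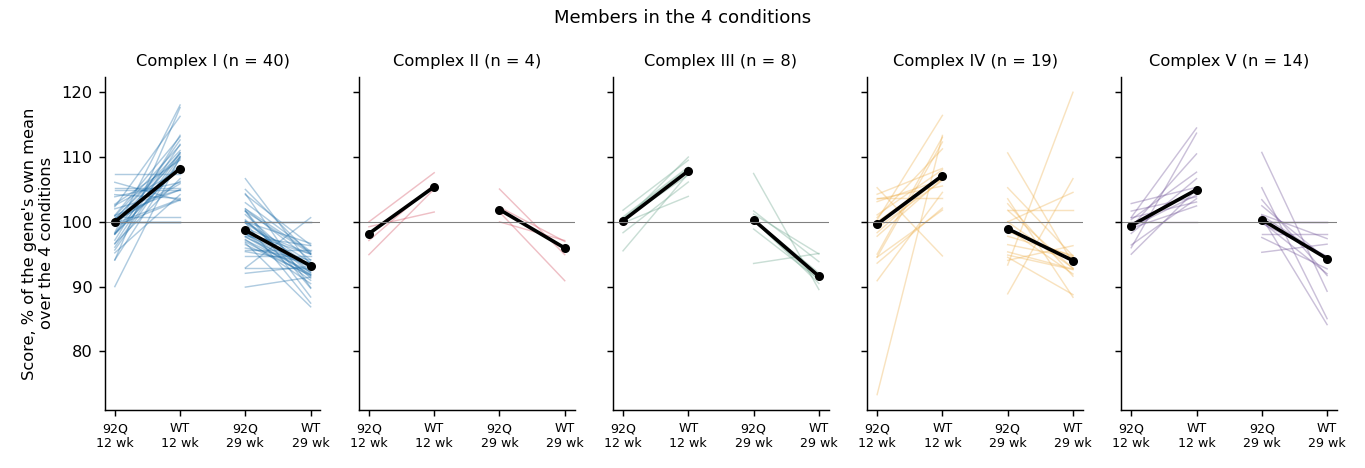
Scores are shown as a percentage of each gene's own mean over the 4 conditions, with thin lines for single genes, which join 92Q to wild type of the same age, and black points for the median of each complex. In all 5 complexes the wild-type median is above the 92Q median at 12 weeks and below it at 29 weeks.

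Members of this pathway differ from most genes of the table in the length of their transcripts, and length moved with the ratios in the whole table. The longest coding transcript had a median of 1001 bases over the 85 genes, and 49 of them, 57.6%, were under 1200 bases. Over the other genes the median was 3319 bases and 6.81% were under 1200. Among other genes under 800 bases the median log2 ratio was -0.10 at 12 weeks, 0.083 at 29 weeks and -0.18 between ages in wild type, while among those of 3000 bases or more all 3 medians were 0. Within the respiratory chain genes the 32 under 800 bases had medians of -0.11 at 12 weeks, 0.11 at 29 weeks and -0.22 between ages in wild type. The 23 of at least 1200 and under 2000 bases had medians of -0.10, 0.097 and -0.18 in the same comparisons, against -0.040, 0.066 and -0.093 in other genes of that length. The 4 of 3000 bases or more had -0.18, 0.050 and -0.18, against 0 in each comparison for other genes of that length. The 9 of at least 2000 and under 3000 bases had -0.034, 0.058 and -0.11, against 0, 0.022 and -0.052. In each class of 1200 bases or more the respiratory chain medians were thus farther from 0 than those of other genes. The 17 of at least 800 and under 1200 bases had -0.14, 0.070 and -0.15, against -0.077, 0.083 and -0.13. Their median at 29 weeks was thus nearer to 0. The longest class rests on Ndufb2, Cox17, Sdhc and Ndufaf4, at -0.31, -0.24, -0.12 and 0 at 12 weeks. Length is that of the longest annotated coding transcript, and which transcript was expressed is not known here. A gene, Ndufb2 and Cox17 included, may thus stand in a longer class than its expressed transcript would. These classes therefore do not settle whether the respiratory chain genes differ from genes of like expressed length. The part of length in these differences was not tested. Restricted to transcripts under 1200 bases, the median of the respiratory chain genes differed from that of all short genes by -0.029 at 12 weeks, by 0.0072 at 29 weeks and by -0.073 between ages in wild type. Among short transcripts the differences are thus smaller than those against all genes.

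**Figure D3:**
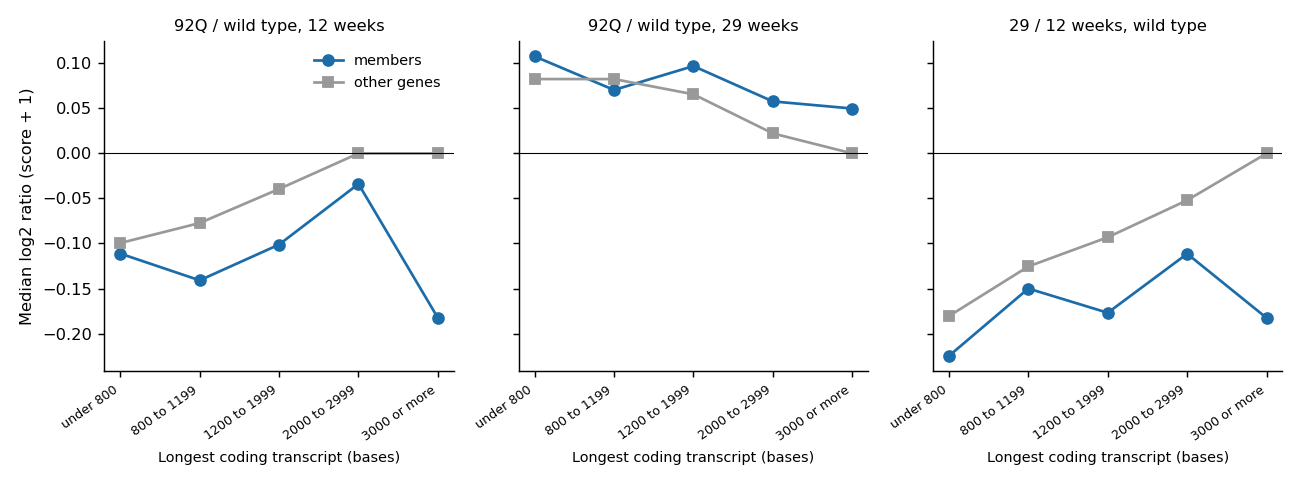
Median log2 ratios of score + 1 are shown for 5 classes of longest coding transcript in bases, for the respiratory chain genes (blue circles) and all other genes (grey squares), in the 2 genotype comparisons and in the wild-type age comparison. The grey medians are 0 in the longest class and -0.10, 0.083 and -0.18 in the shortest, with neighbouring classes equal at 29 weeks (the 2 shortest) and at 12 weeks (the 2 longest). The last blue point rests on 4 genes.

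The order of the 4 conditions was also counted within classes of like genes. Wild type was highest at 12 weeks and lowest at 29 weeks in 30 of the 49 respiratory chain genes under 1200 bases, or 61.2%, and in 133 of 507 other genes under 1200 bases, or 26.2%. These short respiratory chain genes had a median mean score of 86.75, and the other short genes one of 26.5. Low scores are more often equal, and the order was not counted in genes alike in both length and score. Among genes with a mean score of 50 or more, the order was found in 42 of 56 respiratory chain genes, or 75%, and in 13.3% of 1446 other genes. Other genes with such scores and under 800 bases had median log2 ratios of -0.11 at 12 weeks and 0.078 at 29 weeks. Between ages in wild type their median was -0.20. Those of at least 800 and under 1200 bases had -0.088, 0.070 and -0.15 in the same comparisons. Respiratory chain genes at any score had -0.11, 0.11 and -0.22 in the shorter class and -0.14, 0.070 and -0.15 in the longer. Sets taken by symbol prefix to stand for other large assemblies had medians of the same sign. For 23 genes with the prefixes of cytosolic ribosomal proteins the median log2 ratios were -0.10 at 12 weeks and 0.11 at 29 weeks. Those prefixes also take in Rps19bp1, Rpl14-ps1 and Rpl7l1, whose place in the ribosome was not checked. For 59 mitochondrial ribosomal protein genes the medians were -0.078 at 12 weeks and 0.053 at 29 weeks, and for 30 proteasome subunit genes they were -0.064 at 12 weeks and 0.082 at 29 weeks. Between ages in wild type, the medians were -0.091 for cytosolic ribosomal proteins, -0.13 for mitochondrial ribosomal proteins and -0.14 for the proteasome, all nearer to 0 than the -0.20 of the respiratory chain. Whether these groups differ from the respiratory chain was not tested.

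The medians of the 5 complexes were set side by side. At 12 weeks they were -0.12 for complex I, -0.11 for complex II, -0.11 for complex III, -0.11 for complex IV and -0.086 for complex V. The gap between the lowest and the highest was 0.036, while the SD over genes within a complex was 0.030 to 0.14. At 29 weeks the medians were 0.088, 0.11, 0.12, 0.058 and 0.085 in the same order, with a gap of 0.062 and SDs of 0.055 to 0.14. Between ages in wild type they were -0.20, -0.13, -0.23, -0.19 and -0.15, with a gap of 0.10 and SDs of 0.048 to 0.13. With quantile normalization they were -0.17, -0.082, -0.15, -0.12 and -0.10 in this comparison, so complex III was no longer the lowest. In 92Q, without that normalization, they were -0.0068, 0.042, -0.0026, 0.00 and 0.0093 between ages, with a gap of 0.049 and SDs of 0.055 to 0.13. All 5 had the same sign in each genotype comparison and in wild type between ages. The SDs describe differences between single genes and are no error of a median, and whether the complexes differ was not tested. Median transcript lengths were 994, 2065.5, 1441.5, 738 and 1182.5 bases in the order I to V.

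Core and accessory subunits were also set side by side. The 18 core subunits, most of which carry cofactors or catalytic sites, had log2 ratios with medians of -0.076 at 12 weeks, 0.096 at 29 weeks and -0.14 between ages in wild type. The 52 accessory subunits, which surround the core, had -0.12, 0.10 and -0.22 in the same comparisons. Most assembly factors help to build complexes without staying in them as subunits. Cox7a2l, which joins complexes III and IV into supercomplexes, was also put in this class. The 13 genes of the class had -0.083, 0.043 and -0.14 in the same comparisons. Length moved with this split too, since the core transcripts had a median of 1571.5 bases and the accessory ones a median of 760. Its part in the difference between classes was not tested.

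The promoters of these genes are shown for the member of each complex whose genotype ratios differed most between ages, among subunits whose promoter held a searched motif. Sequences run 5′ to 3′ along the gene's strand, with 250 bases before and 50 after the start, from RefSeq on GRCm38.p6. Capitals mark matches on either strand to GCGCANGCG, the core of the site of NRF-1, or to CCGGAAG, an ETS-type site as bound by NRF-2 (GABP). NRF-1 and NRF-2 are known as activators of many nuclear genes of the respiratory chain. Ndufb4 lies at chr16:37654319-37654618 on the minus strand, Sdhb at chr4:140961021-140961320 on the plus strand, Uqcr11 at chr10:80406772-80407071 on the minus strand, Cox6b1 at chr7:30626065-30626364 on the minus strand and Atp5e at chr2:174464052-174464351 on the minus strand.
Ndufb4: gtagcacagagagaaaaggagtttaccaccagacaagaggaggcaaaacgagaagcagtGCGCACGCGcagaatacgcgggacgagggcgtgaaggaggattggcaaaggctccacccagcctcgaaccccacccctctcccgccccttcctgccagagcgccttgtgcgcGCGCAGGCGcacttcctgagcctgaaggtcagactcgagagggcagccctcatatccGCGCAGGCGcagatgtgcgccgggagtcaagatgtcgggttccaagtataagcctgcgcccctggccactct
Sdhb: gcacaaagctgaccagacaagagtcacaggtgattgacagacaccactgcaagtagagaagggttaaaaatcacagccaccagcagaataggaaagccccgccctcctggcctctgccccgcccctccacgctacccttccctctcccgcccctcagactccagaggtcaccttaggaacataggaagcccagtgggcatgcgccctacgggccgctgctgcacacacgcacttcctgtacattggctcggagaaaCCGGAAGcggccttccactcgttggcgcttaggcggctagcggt
Uqcr11: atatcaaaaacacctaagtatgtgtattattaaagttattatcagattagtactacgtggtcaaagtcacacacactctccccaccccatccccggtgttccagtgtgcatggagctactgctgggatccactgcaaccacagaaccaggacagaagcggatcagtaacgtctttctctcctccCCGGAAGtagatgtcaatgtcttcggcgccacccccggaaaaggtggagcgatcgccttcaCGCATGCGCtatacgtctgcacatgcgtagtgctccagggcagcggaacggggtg
Cox6b1: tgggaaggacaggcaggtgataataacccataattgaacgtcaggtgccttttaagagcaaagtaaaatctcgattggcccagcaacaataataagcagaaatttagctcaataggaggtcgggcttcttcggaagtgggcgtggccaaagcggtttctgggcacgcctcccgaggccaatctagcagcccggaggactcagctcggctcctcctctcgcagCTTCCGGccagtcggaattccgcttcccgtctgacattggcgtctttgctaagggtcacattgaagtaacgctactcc
Atp5e: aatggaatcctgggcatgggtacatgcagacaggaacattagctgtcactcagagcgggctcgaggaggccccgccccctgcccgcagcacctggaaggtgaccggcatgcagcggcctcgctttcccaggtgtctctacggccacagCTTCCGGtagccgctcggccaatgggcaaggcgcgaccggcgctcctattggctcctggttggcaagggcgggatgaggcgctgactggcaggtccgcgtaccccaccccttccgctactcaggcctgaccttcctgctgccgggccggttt

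Promoters were found for 72 of the 85 genes, in 78 windows. The NRF-1 core was present in 24.4% of these windows, in 14.1% of 8101 windows of the other genes of the table and in 6.25% of 32851 windows of all promoters. The ETS-type site was present in 24.4%, 16.9% and 8.86% of the same windows. AANATGGCG, the core of the YY1 site, was present in 16.7%, 5.44% and 2.38%, and TCAAGGTCA, the site of estrogen-related receptors, in 2.56%, 0.235% and 0.423%. The search covered both strands, and windows with 2 motifs were counted under each. Any of the 4 motifs was present in 55.1% of the windows of the respiratory chain genes and in 31.7% of those of the other genes of the table. By complex, the NRF-1 core was present in 9 of 38 windows of complex I, 2 of 3 of complex II, 2 of 5 of complex III, 1 of 15 of complex IV and 5 of 17 of complex V. The ETS-type site was present in 5, 2, 2, 6 and 4 of these windows. The printed windows show the spread: Ndufb4 holds 3 NRF-1 cores and no ETS-type site, Uqcr11 holds 1 of each, and Sdhb, Cox6b1 and Atp5e hold 1 ETS-type site. A match in a window is a description of its letters and does not show binding.

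Complex I was lower in 92Q at 12 weeks in 31 of 40 genes and higher in 2, beside 36.7% lower and 32.1% higher over all genes. By at least 1.1-fold 18 were lower, beside 8.02%. At 29 weeks 32 were higher and 3 lower, beside 49.5% and 26.1%, and the 7 higher by at least 1.1-fold stood near the background of 15.0%. Between ages in wild type 38 were lower, beside 45.9%, and 31 of them by at least 1.1-fold, beside 17.1%. The 7 core subunits had log2 ratios with a median of -0.054 at 12 weeks and the 28 accessory ones a median of -0.14. Their median transcript lengths were 1623 and 868 bases.

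Most core subunits of complex I that are made in the nucleus carry its flavin or iron-sulphur clusters. Ndufv1, which binds NADH and the flavin, scored 74 in 92Q and 77 in wild type at 12 weeks, and 76 in 92Q and 71 in wild type at 29 weeks. Ndufv2, an iron-sulphur subunit beside it, scored 107 in 92Q and 111 in wild type at 12 weeks, and 109 in 92Q and 102 in wild type at 29 weeks. Ndufs1, the largest subunit with iron-sulphur clusters, scored 51 in 92Q and 53 in wild type at 12 weeks, and 50 in 92Q and 48 in wild type at 29 weeks. In all 3 the 92Q score was below wild type at 12 weeks and above it at 29 weeks, with log2 ratios of -0.057, -0.053 and -0.054 at 12 weeks and 0.097, 0.095 and 0.058 at 29 weeks. Ndufs7, which holds the last iron-sulphur cluster, scored 136 in 92Q and 144 in wild type at 12 weeks, and 133 in 92Q and 131 in wild type at 29 weeks. Ndufs8, another iron-sulphur subunit, scored 114 in 92Q and 126 in wild type at 12 weeks, and 110 in 92Q and 104 in wild type at 29 weeks. Both had the same genotype directions, with the wider 12-week gap in Ndufs8, at a log2 ratio of -0.14. Ndufs3, part of the arm that leads to ubiquinone, scored 10 in all 4 conditions, so it has no difference at this precision.

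Accessory subunits of the membrane arm had some of the largest differences. Ndufb4 scored 18 in 92Q and 22 in wild type at 12 weeks, and 21 in 92Q and 19 in wild type at 29 weeks. Ndufb6 scored 33 in 92Q and 38 in wild type at 12 weeks, and 36 in 92Q and 31 in wild type at 29 weeks. Ndufb7 scored 113 in 92Q and 131 in wild type at 12 weeks, and 119 in 92Q and 105 in wild type at 29 weeks. All 3 were lowest in 92Q at 12 weeks or in wild type at 29 weeks and highest in wild type at 12 weeks. Their log2 ratios at 12 and 29 weeks were -0.28 and 0.14 for Ndufb4, -0.20 and 0.21 for Ndufb6, and -0.21 and 0.18 for Ndufb7. At scores near 20, 1 unit of rounding is a large part of the difference in Ndufb4. Ndufb2, another membrane-arm subunit and the lowest of complex I at 12 weeks, scored 40 in 92Q and 50 in wild type at 12 weeks, and 41 in 92Q and 39 in wild type at 29 weeks. Its ratios were -0.31 at 12 weeks and 0.070 at 29 weeks, so it differed mainly at the younger age.

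Ndufa2, a small subunit of the arm that takes up NADH, scored 60 in 92Q and 72 in wild type at 12 weeks, and 59 in 92Q and 53 in wild type at 29 weeks. Ndufv3, of the same arm, scored 211 in 92Q and 234 in wild type at 12 weeks, and 209 in 92Q and 183 in wild type at 29 weeks. In both, the 92Q scores differed by at most 2 between ages while the wild-type scores were far apart, with log2 ratios of -0.43 and -0.35 for wild type at 29 against 12 weeks. Some exceptions stood out. Ndufa8 scored 113 in 92Q and 110 in wild type at 12 weeks, and 104 in 92Q and 99 in wild type at 29 weeks, the highest ratio of complex I at 12 weeks, at 0.039. Ndufa12 scored 38 in 92Q and 42 in wild type at 12 weeks, and 36 in 92Q and 39 in wild type at 29 weeks, and was lower in 92Q at both ages. Ndufa5 scored 84 in 92Q and 85 in wild type at 29 weeks, and 98 in both genotypes at 12 weeks. Its genotype ratios were -0.017 at 29 weeks and 0 at 12 weeks, and it was lower at 29 weeks in both genotypes. The 5 assembly factors had low scores: Ndufaf4 was 10 in all 4 conditions and Ndufaf7 was 9 in both genotypes at 29 weeks and 10 in both at 12 weeks.

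Whether reads were counted by strand is not stated, and 27 of the 85 genes share exon sequence with a gene on the other strand and 5 with one on their own strand. Among the genes named above, Ndufa2 overlaps Tmco6, Ndufb6 overlaps Smim27, Ndufb2 overlaps Braf, Ndufs1 overlaps Eef1b2 and Ndufs3 overlaps Kbtbd4, so reads of the partners may enter their scores. On their own strand, Cox17 overlaps Gm21987 and Ndufb2 overlaps Gm42420. Of genes named below, Ndufb11 overlaps Rbm10, Uqcrc2 overlaps Pdzd9 and Cox5a overlaps Gm26631 on the other strand, beside those given there. There were 3 X-linked genes among the 85, which could move with the sexes of the pools. Ndufa1 scored 68 in 92Q and 78 in wild type at 12 weeks, and 68 in 92Q and 63 in wild type at 29 weeks. Ndufb11 scored 58 in 92Q and 64 in wild type at 12 weeks, and 60 in 92Q and 58 in wild type at 29 weeks. Cox7b, of complex IV, scored 38 in 92Q and 42 in wild type at 12 weeks, and 36 in 92Q and 35 in wild type at 29 weeks. All 3 were lower in 92Q at 12 weeks and higher at 29 weeks, the direction of most of the 85 genes at each age. The part of sex in their scores was not tested.

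All 4 subunits of complex II were lower in 92Q at 12 weeks, beside 36.7% of all genes, and higher at 29 weeks, beside 49.5%. Sdha, the flavoprotein that oxidizes succinate, scored 131 in 92Q and 134 in wild type at 12 weeks, and 135 in 92Q and 128 in wild type at 29 weeks. Sdhb, which carries the iron-sulphur clusters, scored 75 in 92Q and 83 in wild type at 12 weeks, and 83 in 92Q and 75 in wild type at 29 weeks. Its values at the 2 ages were exactly exchanged between the genotypes, with log2 ratios of -0.14 and 0.14. Sdhc, a membrane anchor, scored 101 in 92Q and 110 in wild type at 12 weeks, and 104 in 92Q and 101 in wild type at 29 weeks. Sdhd, the other membrane anchor, scored 66 in 92Q and 71 in wild type at 12 weeks, and 67 in 92Q and 60 in wild type at 29 weeks. The genotype gap was wider at 12 weeks in Sdhc and at 29 weeks in Sdhd. In 92Q all 4 genes scored slightly higher at 29 weeks, with a median log2 ratio of 0.042.

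All 8 genes of complex III were lower in 92Q at 12 weeks, beside 36.7% of all genes, and the 1 lower by at least 1.1-fold stood near the background of 8.02%. At 29 weeks 7 were higher, beside 49.5%, and 3 of them by at least 1.1-fold, beside 15.0%. Between ages in wild type all 8 were lower, beside 45.9%, and 7 by at least 1.1-fold, beside 17.1%. Cyc1, the cytochrome c1 of the complex, scored 146 in 92Q and 156 in wild type at 12 weeks, and 146 in 92Q and 134 in wild type at 29 weeks. Uqcrfs1, the Rieske iron-sulphur protein, scored 90 in 92Q and 99 in wild type at 12 weeks, and 89 in 92Q and 82 in wild type at 29 weeks. In both catalytic subunits the 92Q scores lay between the wild-type scores of the 2 ages. The large subunits on the matrix side had the same genotype directions. Uqcrc1 scored 146 in 92Q and 152 in wild type at 12 weeks, and 148 in 92Q and 139 in wild type at 29 weeks, while Uqcrc2 scored 88 in 92Q and 95 in wild type at 12 weeks, and 91 in 92Q and 84 in wild type at 29 weeks. Uqcr11, a small membrane subunit, scored 16 in 92Q and 18 in wild type at 12 weeks, and 18 in 92Q and 15 in wild type at 29 weeks, so 2 or 3 units make its ratios of -0.16 and 0.25. Uqcrh, the hinge protein that helps cytochrome c1 meet cytochrome c, was the exception, at 198 in 92Q and 213 in wild type at 12 weeks and 182 in 92Q and 185 in wild type at 29 weeks.

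Complex IV had the largest SD over genes in the genotype comparisons, 0.14 at either age. That SD includes the low-scoring Cox6b2, at log2 ratios of -0.58 and -0.34. Its quartiles at 12 weeks were -0.17 and -0.074, against -0.17 and -0.038 in complex I. At 29 weeks they were 0.015 and 0.12, against 0.014 and 0.16 in complex V. At 12 weeks 17 of the 19 genes of complex IV were lower in 92Q and 1 was higher, beside 36.7% and 32.1% of all genes. At 29 weeks 14 were higher and 4 lower, beside 49.5% and 26.1%. Its core subunits are made in mitochondria, so the nuclear genes are accessory subunits and assembly factors. Cox4i1, a subunit that regulates the enzyme, scored 430 in 92Q and 462 in wild type at 12 weeks, and 442 in 92Q and 403 in wild type at 29 weeks. Cox6a1 scored 337 in 92Q and 363 in wild type at 12 weeks, and 335 in 92Q and 318 in wild type at 29 weeks. Cox8a scored 600 in 92Q and 623 in wild type at 12 weeks, and 546 in 92Q and 533 in wild type at 29 weeks, and was lower at 29 weeks in both genotypes. All 3 were below wild type at 12 weeks and above it at 29 weeks in 92Q. Cox6c, a small membrane subunit, scored 100 in 92Q and 119 in wild type at 12 weeks, and 109 in 92Q and 93 in wild type at 29 weeks. Its log2 ratios were -0.25 and 0.23, the largest difference between ages in the complex, at 0.48. Cox6c overlaps Vps13b and Cox4i1 overlaps Emc8 on the other strand. Cox5a scored 103 in 92Q and 105 in wild type at 12 weeks, and 96 in 92Q and 94 in wild type at 29 weeks. Ndufa4 is named for complex I but is a subunit of complex IV, and scored 327 in 92Q and 360 in wild type at 12 weeks, and 314 in 92Q and 308 in wild type at 29 weeks.

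Isoforms were compared for the subunits with rows for more than 1. Cox6b2, known from testis, lies at chr7:4751792-4753094 on the minus strand of mm10. It scored 11 in 92Q and 17 in wild type at 12 weeks, and 14 in 92Q and 18 in wild type at 29 weeks. It was lower in 92Q at both ages, with log2 ratios of -0.58 and -0.34. It was the only one of the 85 genes to reach 1.5-fold in any comparison, at 12 weeks, where 0.248% of all genes reached it in either direction. Its fold there was exactly at that threshold, and rounding alone allows a log2 ratio of -0.69 to -0.49, which spans it. At 29 weeks 1.27% of all genes reached it, and between ages 0.365% did in wild type and 1.46% in 92Q. Cox6b2 was also the only one of them in the authors' deposited table of selected genes. Its score rests on few units, as 6 separate the genotypes at 12 weeks and 4 at 29 weeks. Cox6b1, the ubiquitous isoform, scored 377 in 92Q and 403 in wild type at 12 weeks, and 369 in 92Q and 343 in wild type at 29 weeks, with log2 ratios of -0.096 and 0.11. The isoforms thus had the same direction at 12 weeks and the opposite one at 29 weeks.

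Cox7a1, the heart and muscle isoform of another small subunit, scored 11 in 92Q and 12 in wild type at 12 weeks, and 13 in 92Q and 11 in wild type at 29 weeks. Cox7a2, the isoform of most other tissues, scored 88 in 92Q and 96 in wild type at 12 weeks, and 92 in 92Q and 82 in wild type at 29 weeks. Cox7a2l, a related protein that joins complexes III and IV into supercomplexes, scored 20 in 92Q and 23 in wild type at 12 weeks, and 22 in 92Q and 23 in wild type at 29 weeks. Cox7a1 and Cox7a2 had the same directions, lower in 92Q at 12 weeks and higher at 29 weeks, and at 29 weeks Cox7a2l was lower by 1 unit. Cox5b, which binds zinc, scored 11 in 92Q and 12 in wild type at 12 weeks, and 10 in 92Q and 12 in wild type at 29 weeks. Cox5b and Ndufa5 were the 2 genes whose ratio was lower at 29 than at 12 weeks. Among assembly factors, Cox17, a copper chaperone, scored 48 in 92Q and 57 in wild type at 12 weeks, and 50 in 92Q and 48 in wild type at 29 weeks. Cox14 scored 87 in 92Q and 101 in wild type at 12 weeks, and 82 in 92Q and 77 in wild type at 29 weeks, with a wild-type log2 ratio of -0.39 between ages.

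Complex V was lower in 92Q at 12 weeks in 13 of 14 genes, beside 36.7% of all genes. At 29 weeks 10 were higher and 1 lower, beside 49.5% and 26.1%. The 5 subunits of its catalytic F1 head had median ratios, on the log2 scale, of -0.069 at 12 weeks and 0.12 at 29 weeks. Atp5a1, the alpha subunit, scored 373 in 92Q and 386 in wild type at 12 weeks, and 381 in 92Q and 367 in wild type at 29 weeks. Atp5b, the catalytic beta subunit, scored 643 in 92Q and 657 in wild type at 12 weeks, and 631 in 92Q and 599 in wild type at 29 weeks. In both, the ratios were small, at -0.049 and 0.054 for Atp5a1 and -0.031 and 0.075 for Atp5b. Atp5c1, the gamma subunit of the rotating stalk, scored 60 in 92Q and 63 in wild type at 12 weeks, and 62 in 92Q and 57 in wild type at 29 weeks. Atp5d, the delta subunit of the stalk, scored 288 in 92Q and 309 in wild type at 12 weeks, and 287 in 92Q and 264 in wild type at 29 weeks. Atp5a1 overlaps Haus1 and Atp5d overlaps Cbarp on the other strand.

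Atp5e, the epsilon subunit of the stalk and the smallest part of the head, had the largest difference between ages of the 85 genes. It scored 114 in 92Q and 135 in wild type at 12 weeks, and 125 in 92Q and 101 in wild type at 29 weeks. The wild-type scores were the highest and the lowest of the 4, and the 92Q scores lay between them. Its log2 ratios were -0.24 at 12 weeks and 0.30 at 29 weeks, a difference of 0.55. Atp5j2, the f subunit of the membrane part, scored 73 in 92Q and 83 in wild type at 12 weeks, and 73 in 92Q and 61 in wild type at 29 weeks. Atp5k, the e subunit beside it, scored 27 in 92Q and 29 in wild type at 12 weeks, and 31 in 92Q and 25 in wild type at 29 weeks. Both were higher in 92Q at 29 weeks by ratios of 0.26 and 0.30, with smaller gaps of -0.18 and -0.10 at 12 weeks. Atp5h, the d subunit of the peripheral stalk, scored 82 in 92Q and 84 in wild type at 12 weeks, and 76 in 92Q and 77 in wild type at 29 weeks, and was the lowest of the complex at 29 weeks. Atp5s scored 13 in all 4 conditions.

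**Figure D4:**
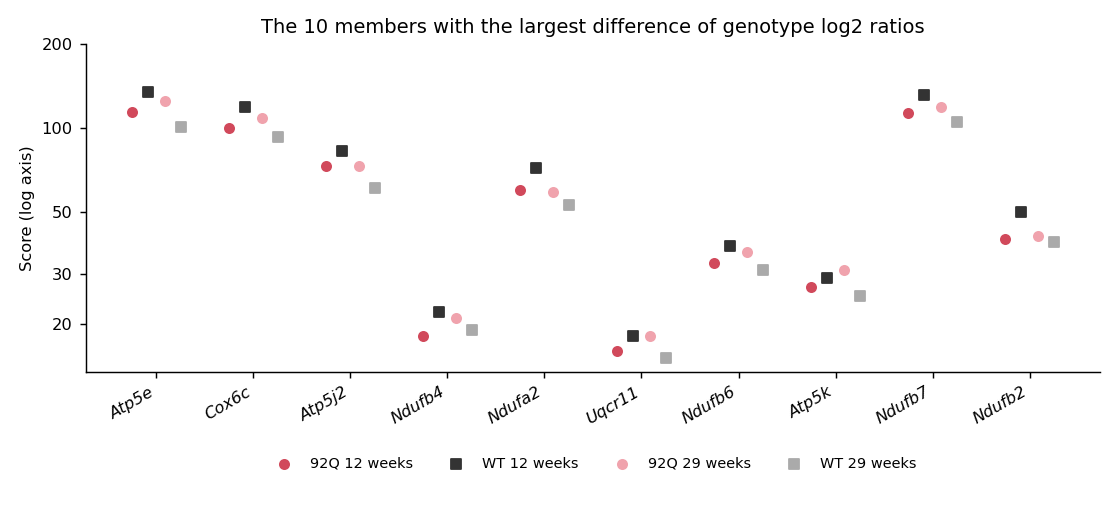
Scores in the 4 conditions are shown on a log axis for the 10 genes with the largest difference of the genotype log2 ratios between 29 and 12 weeks, with circles for 92Q and squares for wild type. In each gene the 12-week wild-type square lies above the 12-week 92Q circle, and the 29-week wild-type square lies below the 29-week 92Q circle.

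Genes of the same pathway outside the symbol rule were listed by role. Of 33 listed assembly factors without these prefixes 21 were measured, with 10 lower and 2 higher in 92Q at 12 weeks and 4 lower and 10 higher at 29 weeks. Over all genes 36.7% were lower and 32.1% higher at 12 weeks, and 26.1% lower and 49.5% higher at 29 weeks, so the 29-week counts stood near the background. Their median log2 ratio was 0 at both ages. Uqcc2, which helps to assemble complex III, scored 55 in 92Q and 61 in wild type at 12 weeks, and 56 in 92Q and 53 in wild type at 29 weeks. Pet100, a factor of complex IV, scored 30 in 92Q and 35 in wild type at 12 weeks, and 24 in 92Q and 28 in wild type at 29 weeks, lower in 92Q at both ages. Other factors at the extremes at 29 weeks had low scores. Tmem126b, of complex I assembly, scored 17 in 92Q and 18 in wild type at 12 weeks, and 19 in 92Q and 17 in wild type at 29 weeks. Timmdc1, of the same process, scored 10 in both genotypes at 12 weeks, and 8 in 92Q and 9 in wild type at 29 weeks. Tmem70, which acts in ATP synthase assembly, scored 26 in 92Q and 27 in wild type at 12 weeks, and 22 in 92Q and 24 in wild type at 29 weeks. Differences of 1 or 2 units make up these ratios. For the ATP synthase, 2 genes with other symbols were measured. Atpif1, its inhibitor, scored 337 in 92Q and 357 in wild type at 12 weeks, and 328 in 92Q and 311 in wild type at 29 weeks. The gene listed as 2010107E04Rik, named Atp5mpl in RefSeq, scored 116 in 92Q and 135 in wild type at 12 weeks, and 120 in 92Q and 100 in wild type at 29 weeks. In both, wild type was highest at 12 weeks and lowest at 29 weeks.

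The citric acid cycle, which feeds the chain, was measured by 12 of 13 genes. At 12 weeks 6 were lower and 6 higher in 92Q, where 36.7% of all genes were lower and 32.1% higher. At 29 weeks 1 was lower and 10 were higher, where 26.1% of all genes were lower and 49.5% higher. Suclg1, a subunit of succinate-CoA ligase, scored 63 in 92Q and 68 in wild type at 12 weeks, and 64 in 92Q and 58 in wild type at 29 weeks. Cs, citrate synthase, scored 122 in 92Q and 119 in wild type at 12 weeks, and 126 in 92Q and 122 in wild type at 29 weeks. The median log2 ratio of the cycle was -0.0047 at 12 weeks and 0.048 at 29 weeks. The 4 measured carriers and porins were all lower in 92Q at 12 weeks and all higher at 29 weeks, beside 36.7% and 49.5% of all genes. Their medians were -0.064 and 0.074, and 0 of the 4 reached 1.1-fold at either age. Slc25a4, an ADP/ATP carrier, scored 406 in 92Q and 437 in wild type at 12 weeks, and 424 in 92Q and 400 in wild type at 29 weeks. Of 10 listed regulators 6 were measured. At 12 weeks 1 was lower and 3 were higher in 92Q, beside 36.7% and 32.1% of all genes. At 29 weeks 2 were lower and 1 was higher, beside 26.1% and 49.5%. Ppargc1a, a coactivator of mitochondrial gene expression, scored 15 in 92Q and 13 in wild type at 12 weeks, and 16 in 92Q and 15 in wild type at 29 weeks. Gabpa, the DNA-binding subunit of NRF-2, scored 10 in 92Q and 9 in wild type at 12 weeks, and 9 in both at 29 weeks. Gabpb1, its partner subunit, scored 17 in 92Q and 16 in wild type at 12 weeks, and 16 in 92Q and 17 in wild type at 29 weeks. The 3 regulators differed between genotypes by at most 2 units.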

How the data were processed

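RNA of total cerebellum was isolated with TRIzol and RNeasy, made into TruSeq libraries and read as single ends of 50 bases, per the labels' protocols. The submitters' processing notes name Bowtie 0.12.7, SAMtools 0.1.12a, Cuffdiff 1.3.0 and mm10. How the values were annotated, normalized and counted by strand is not stated in the labels. The deposited values are a score that the authors rounded to whole numbers, 1 per gene and condition, so depth per library is unknown and no interval or test was computed. Every deposited row reached 10 in some condition, 17 rows of 7684 without a gene name were left out, and 0 columns of values were unused.

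Ratios are log2 of score + 1, for genes with at least 5 in either condition, with calls at 1.1-fold and 1.5-fold on that scale. They were computed with Python 3.11.15, pandas 2.3.3 and NumPy 2.4.6 and checked on simulated data. Transcript lengths and gene positions came from GENCODE M21 and promoters from RefSeq. Genes named were the core subunits, except an item that is not reported here, the extremes per complex, those past 1.5-fold, the 10 with the largest difference between ages in each direction where so many had one, isoform pairs, and extremes of the other pathway genes. A few further subunits and factors were picked with their values in view. The members and lists were chosen with earlier results of these data known. Alternatives were other pseudocounts, minima and scalings, structural subunits, high scores and, added after seeing the data, short transcripts.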

Additional observations from a re-analysis of the deposited data

Results flagged for a closer look

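The genotype effect had opposite directions at the 2 ages in the respiratory chain genes, which is what marked them for a closer look. With 1 value per condition the difference was not tested. The difference of the log2 ratios of 92Q over wild type, 29 minus 12 weeks, had a median of 0.18 over all 85 genes. By complex the median difference was 0.17 for complex I, 0.21 for complex II, 0.23 for complex III, 0.18 for complex IV and 0.18 for complex V. Among genes at least 1.1-fold lower in 92Q at 12 weeks and at least 1.1-fold higher at 29 weeks, the difference was 0.55 for Atp5e, 0.48 for Cox6c, 0.44 for Atp5j2, 0.41 for Ndufb4, 0.41 for Ndufa2, 0.41 for Uqcr11, 0.41 for Ndufb6, 0.39 for Ndufb7, 0.34 for Ndufv3 and 0.29 for Sdhb. Transcript length moved with the ratios, and sex-linked, choroid plexus and cell-type genes differed between the conditions, with the values given above, and their part was not tested. Among transcripts under 1200 bases the median difference of the respiratory chain genes over that of all short genes was 0.064.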

How the results depend on the processing

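Medians in this section are those of the respiratory chain genes minus that of all genes under the same setting, on the log2 scale. A pseudocount of 0.1 and a minimum of 10 or none moved no median or count beyond the bounds used. Quantile normalization gave -0.083 for all 85 genes at 12 weeks and -0.099 for complex I, -0.084 for II, -0.073 for III and -0.066 for V. It gave -0.14 for wild type between ages, 0.019 for 92Q between ages, and differences between the genotype ratios of 0.16 for all, 0.18 for II, 0.19 for III and 0.15 for V. Without that normalization the median of 92Q between ages was 0, and with median-ratio scaling, before subtraction of the median of all genes, it was -0.011. A pseudocount of 5 gave -0.17 for wild type between ages, with -0.18 for I, -0.21 for III and -0.15 for IV. In the same comparison, genes with a mean score of 50 or more gave -0.17 for I, -0.08 for II and -0.16 for III. Structural subunits alone gave -0.18 for V there. Genes with a mean score of 50 or more gave -0.096 for II and -0.088 for III at 12 weeks, 0.088 for II and 0.095 for III at 29 weeks, -0.17 for wild type between ages, and differences of 0.14 for I, 0.19 for II and 0.20 for III. Structural subunits alone gave 0.11 for V at 29 weeks and differences of 0.21 for all, 0.19 for I and 0.20 for V. The count lower by 1.1-fold at 12 weeks, 30, was 17 with upper quartile scaling and 18 with mean scores of 50 or more, where 56 of the 85 genes are left. Of 1446 other genes with such scores, 114 were lower by that much at 12 weeks and 152 were higher by that much at 29 weeks. The count higher by 1.1-fold at 29 weeks, 20, was 12 with median-ratio scaling and 12 with mean scores of 50 or more. Upper quartile scaling moved the median of all genes by 0.032 at 12 weeks, and median-ratio scaling moved it to -0.025 at 29 weeks. Shares of all genes past 1.1-fold were not counted after rescaling.

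Transcripts under 1200 bases were taken alone as a choice made after seeing the data. Complex by complex the medians over that of all short genes were then -0.048, -0.055, -0.017, -0.026 and -0.029 for I to V at 12 weeks, and -0.029 for all. At 29 weeks they were 0.0057 for I, 0.062 for II, 0.065 for III and 0.0072 for all, and for IV the median reversed to -0.025. For wild type between ages it was -0.073, and the differences were 0.064 for all and 0.033, 0.13, 0.094, 0.032 and 0.13 for I to V. Complex II then rests on 1 gene and complex III on 3. The reason for the dependence on length was not tested.

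No paired analysis was possible because the table holds 1 value per condition, and leaving out single libraries was not run for the same reason. Depth is unknown, and whole-number rounding limits scores near 10 to steps of about 0.1 in log2.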
